A study of Homo sapiens with 12 samples.

Results

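PEG3 and ZIM2 are a pair of overlapping imprinted genes on human chromosome 19 that end at the same upper coordinate, 56840726 in hg38. The window described here ran from 56774000 to 56842500 on chromosome 19. It held 86 of the 3689712 CpGs in the 5-methylcytosine (5mC) table and 85 of the 3534314 CpGs in the 5-hydroxymethylcytosine (5hmC) table, and 85 CpGs were in both. The window was set by position, but the locus was chosen from earlier 5mC and 5hmC results of these same tables. Its levels and differences are therefore a description and support nothing beyond themselves.

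Imprinted genes are expressed from the allele of 1 parent. At this locus the copy inherited from the mother carries methylation over a CpG-rich control region at the start of the genes, and the copy from the father, which lacks it, is expressed. PEG3 encodes a large zinc finger protein linked to growth control and cell death, and ZIM2 encodes another zinc finger protein whose human transcripts begin at the PEG3 start. Methylation of an imprint is normally kept through cell division by the maintenance methyltransferase and by zinc finger proteins that hold it on the marked allele. 5hmC arises when TET enzymes oxidise 5mC.

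The cells were SV-HUC-1, a human urothelial line immortalised with SV40, harvested 3 days after DCBQ (2,6-dichloro-1,4-benzoquinone, a chlorinated quinone that forms during water disinfection) or after a blank solution (Control). All groups were this 1 immortalised line, and the values are not split by parental allele. The 12 libraries comprised 3 of reduced representation bisulfite sequencing (RRBS) and 3 of its oxidative form (oxRRBS) for each condition. Bisulfite alone reads both marks together, and oxidation beforehand leaves 5mC. The deposited values were 3 DCBQ and 3 Control columns per mark, and the labels do not say that they came from separate cultures, so the spread between them may be technical.

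Levels are given as percent, as a mean over CpGs, and differences are DCBQ minus Control in percentage points. Depth per CpG is unknown. Over all CpGs, 5mC averaged 54.1% ± 0.10 in DCBQ samples and 54.5% ± 0.15 in Control samples (SD, n = 3 each), without overlap between groups, and 5hmC averaged 3.47% ± 0.14 in DCBQ samples and 3.37% ± 0.06 in Control samples. Pairs of samples correlated at 0.968 to 0.972 in 5mC over the whole table, against 0.197 to 0.231 in 5hmC. Within the window 5mC correlated at 0.806 to 0.890 and 5hmC at -0.215 to 0.326, so the ranking of single CpGs by 5hmC did not repeat between samples, and means over many CpGs are the values to read.

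PEG3 spans 56810082 to 56840726 and ZIM2 spans 56774547 to 56840726 on chromosome 19 in the GRCh38.p14 gene table, which gives no exons, introns or untranslated regions. The 3 blocks were set from these ends. The control region ran from 4000 bp inside the shared gene end to the top of the window, with 48 measured CpGs. The PEG3 body was the rest of PEG3, with 24 CpGs, and it is also part of ZIM2. The lower part of ZIM2 lay outside PEG3, with 14 CpGs in the 5mC table and 13 in the 5hmC table. The lower part also overlaps ZIM2-AS1, a gene listed at 56765322 to 56799646. No measured CpG fell in PEG3-AS1, an antisense gene inside PEG3. MIMT1, a noncoding RNA gene of the same imprinted cluster, starts at 56840902, above the highest measured CpG, which lay 91 bp beyond the shared gene end.

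The blocks had distinct 5mC levels in both conditions. In the control region the means of single CpGs over all samples ran from 19.1% to 73.4% with a median of 35.9%, and 47 of its 48 CpGs lay between 20% and 80%. Among all CpGs measured for 5mC, 26.4% lay in that range. The PEG3 body was higher, with a median CpG at 63.0% and 6 of 24 CpGs above 80%. The ZIM2 lower part was lower, with a median CpG at 13.6% and 10 of 14 CpGs under 20%.

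**Figure D1:**
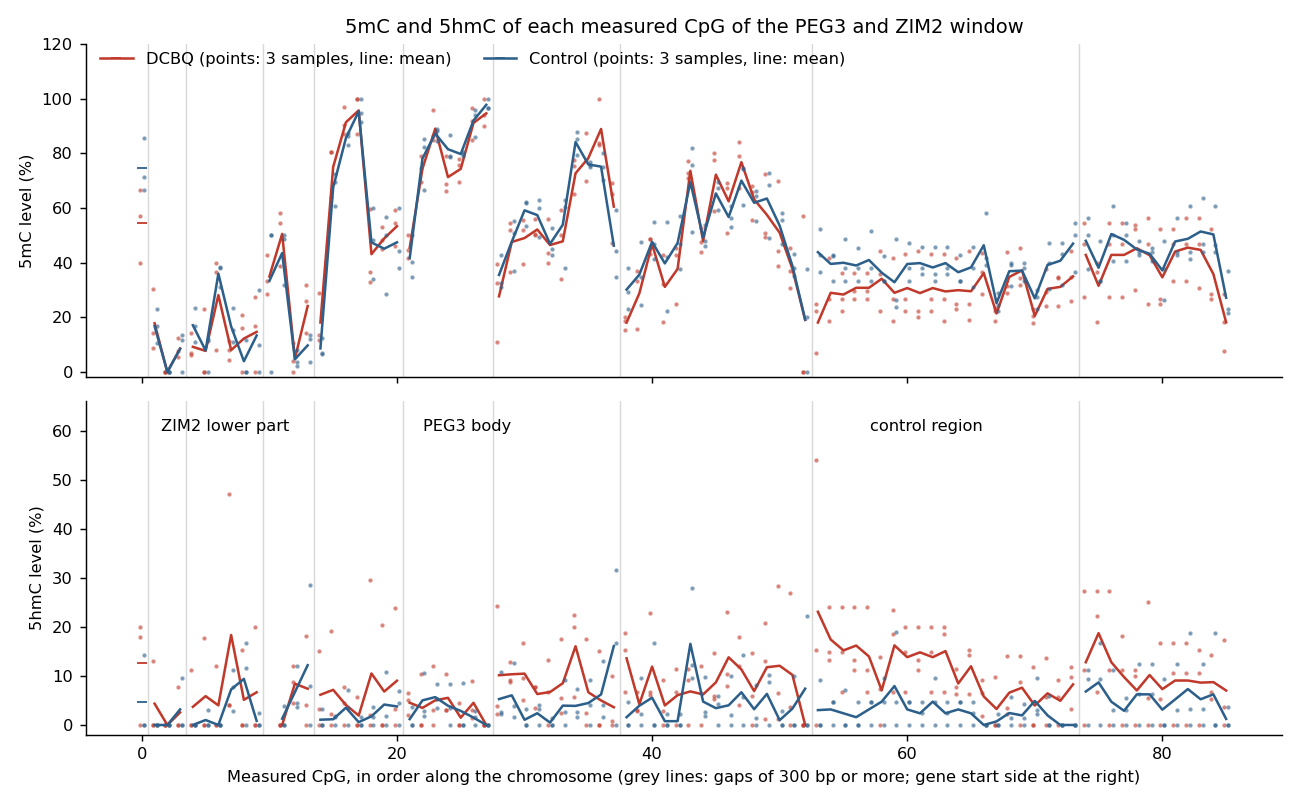
Levels of 5mC (top) and 5hmC (bottom) in percent at each measured CpG of the window, in order along the chromosome, with 1 point per sample and a line for the mean of each group; grey lines mark gaps of 300 bp or more. The 5mC level is intermediate across most of the control region at the right, and the DCBQ line for 5hmC lies above the Control line at 45 of its 48 CpGs.

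In the control region 5hmC was higher in DCBQ samples. The block mean was 10.9%, 11.1% and 8.21% in DCBQ samples 1 to 3, against 2.46%, 5.46% and 3.93% in Control samples 1 to 3. The lowest DCBQ sample lay above the highest Control sample. The means were 10.1% ± 1.6 in DCBQ samples and 3.95% ± 1.5 in Control samples (SD, n = 3 each), a difference of 6.11 points (SE 1.27). Relative to the difference of all CpGs in the same samples it was 6.01 points. The two-sided exact permutation test gave p = 0.1, the smallest value that 3 against 3 samples allow, and 0.4 after Benjamini-Hochberg adjustment over the 8 block tests, so the test cannot pass 0.05.

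The difference depended on how CpGs were weighted. With each 1000 bp tile counted equally it was 1.47 points, because 1 of 3 tiles then rests on a single CpG, at -2566 bp from the gene end, which had 5hmC of 0% in all DCBQ samples and 0%, 0% and 22.2% in Control samples 1 to 3. Without any 1 sample the difference stayed between 5.37 and 7.03 points.

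The same direction held at most single CpGs of the control region. 5hmC was higher in DCBQ samples at 45 of 48 CpGs and lower at 3, and without any 1 sample it was higher at 39 to 44 CpGs. Among all CpGs, 45.3% were higher and 43.7% lower in DCBQ samples. At 11 of the 48 CpGs, 22.9%, every DCBQ sample lay above every Control sample, and at none did every DCBQ sample lie below. Among all tested CpGs, 3.14% did not overlap in the higher direction and 2.9% in the lower. CpGs close together can lie on the same reads, so these counts are not counts of independent sites. Samples listed 5hmC at 0 in 28 of 144 DCBQ values and in 66 of 144 Control values, which is 19.4% and 45.8%. The shares over the whole table were 54.7% in DCBQ samples and 55.2% in Control samples.

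CpGs of similar 5mC elsewhere gave a scale for these 5hmC levels. The 519414 shared CpGs with a mean 5mC from 20% to 60% had mean 5hmC of 6.56% in DCBQ samples and 6.58% in Control samples. The control region lay above that level in DCBQ samples and below it in Control samples.

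For 5mC the control region leaned the other way, but the groups overlapped. Block means were 34.2%, 45.3% and 34.3% in DCBQ samples 1 to 3, against 45.5%, 42.3% and 42.7% in Control samples 1 to 3. DCBQ samples 1 and 3 lay below all Control samples and DCBQ sample 2 lay among them. The means were 37.9% ± 6.4 in DCBQ samples and 43.5% ± 1.7 in Control samples (SD, n = 3 each), a difference of -5.56 points (SE 3.81; two-sided exact permutation test, p = 0.3, adjusted p = 0.48). Sample 2 sets much of this spread, since the difference was -9.24 points without DCBQ sample 2, -3.71 points without DCBQ sample 1 and -3.74 points without DCBQ sample 3. It was -3.07 points with tiles counted equally. At 41 of 48 CpGs the DCBQ mean was lower, which became 31 of 48 without DCBQ sample 1. The whole table had 49.2% of CpGs lower and 43.0% higher. Every DCBQ sample lay below every Control sample at 2 of 48 CpGs, 4.17%, beside 4.66% of all tested CpGs, and above at 0 of 48, beside 3.36%.

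**Figure D2:**
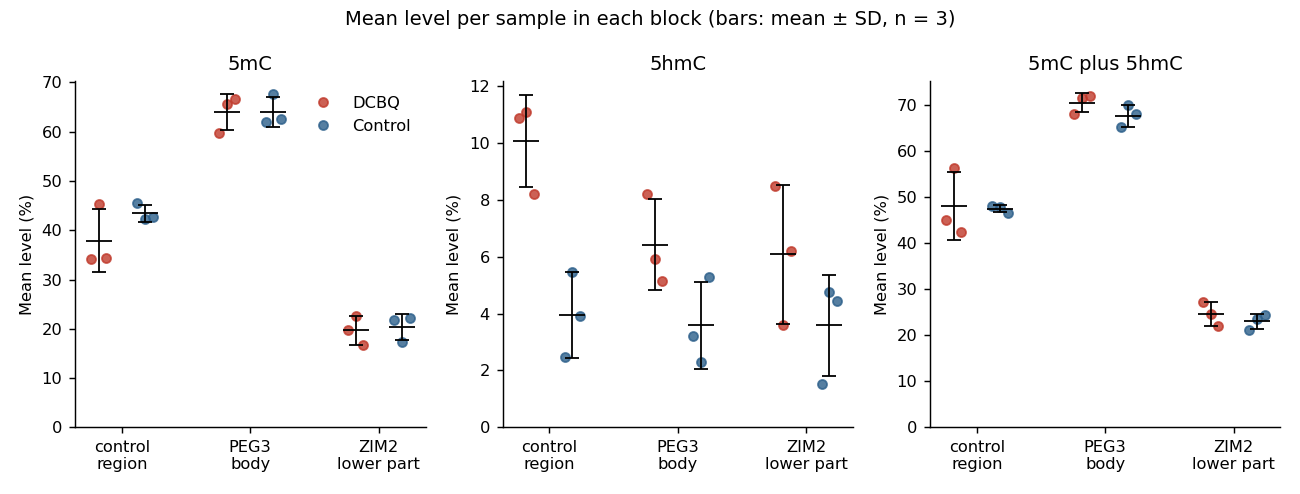
Mean level per sample in percent for 5mC, 5hmC and their sum in the control region, the PEG3 body and the ZIM2 lower part, with DCBQ samples at the left of each pair, Control samples at the right, and black bars for mean ± SD (n = 3 each). In the control region the DCBQ samples lie at 8.21% to 11.1% for 5hmC, above all Control samples, whereas 5mC and the sum overlap between groups.

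The sum of the marks in the control region was nearly equal between groups. It was 45.1%, 56.4% and 42.5% in DCBQ samples 1 to 3, against 47.9%, 47.8% and 46.6% in Control samples 1 to 3. The means were 48.0% ± 7.4 in DCBQ samples and 47.4% ± 0.7 in Control samples (SD, n = 3 each), with a difference of 0.55 points (SE 4.28). The DCBQ samples were spread on both sides of the Control samples, so a change of several points in either direction would not have been detectable. At 39 of the 48 CpGs, 81.2%, 5mC was lower and 5hmC higher in DCBQ samples, a pattern found at 32.3% of the 3533825 shared CpGs of the table. The sources used here do not say how the authors derived each mark from the RRBS and oxRRBS libraries. Whether the paired directions are separate readings therefore cannot be told apart.

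**Figure D3:**
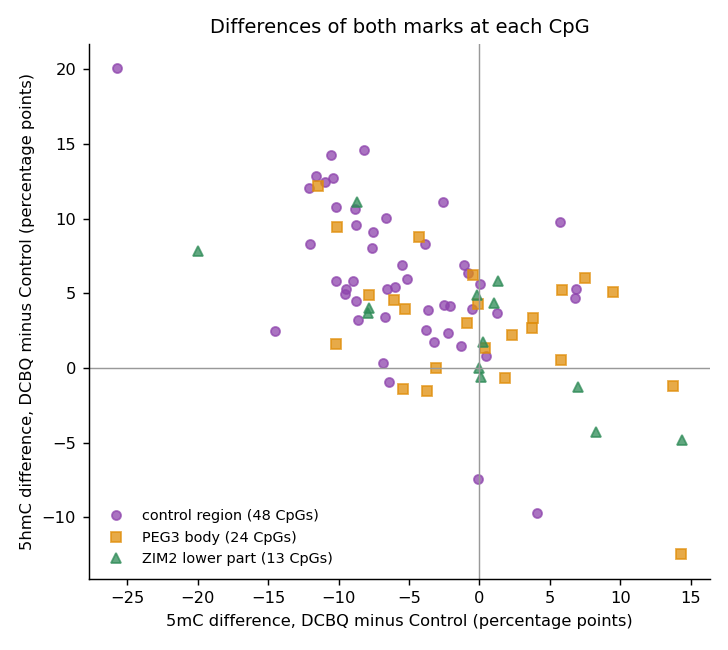
Difference in 5hmC against difference in 5mC, both DCBQ minus Control in percentage points, for each of the 85 CpGs measured for both marks, with symbols by block. Of the 48 control region CpGs, 39 lie in the upper left field, where 5mC is lower and 5hmC higher in DCBQ samples.

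The measured CpGs of the control region fell into 3 runs separated by gaps of at least 300 bp. Distances are counted from the shared gene end, with negative values inside the genes. The run of 21 CpGs from -668 to -389 bp carried the clearest separation. Its 5hmC was 6.64%, 15.8% and 11.0% in DCBQ samples 1 to 3, against 3.00%, 4.41% and 0.63% in Control samples 1 to 3. The groups did not overlap, and the difference was 8.46 points (SE 2.87; two-sided exact permutation test, p = 0.1, the smallest possible). At 20 of these 21 CpGs 5hmC was higher in DCBQ samples, and 10 of the 11 control region CpGs without overlap lay in this run. These CpGs lie close together and can lie on the same reads, so the counts are not of independent sites. In DCBQ sample 1, for example, 5mC was 26.7% at each of the CpGs at -665, -662, -660 and -654 bp. Its 5mC was 27.8%, 37.4% and 24.2% in DCBQ samples 1 to 3, against 33.8%, 37.9% and 43.2% in Control samples 1 to 3, a difference of -8.48 points (SE 4.80) with overlap. The sum of the marks in the run differed by -0.02 points (SE 6.51).

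The other runs of the control region did not separate the groups. At the gene end itself, from -73 to 91 bp with 12 CpGs, 5hmC was 18.2%, 9.53% and 2.56% in DCBQ samples 1 to 3, against 0%, 11.0% and 5.01% in Control samples 1 to 3. Here DCBQ sample 1 was highest and Control sample 1 was at 0, and the difference of 4.76 points (SE 5.53) was smaller than its error. It was 0.708 points without DCBQ sample 1, 2.09 without Control sample 1, 8.53 without DCBQ sample 3 and 7.59 without Control sample 2. 5mC in that run was 27.0%, 50.6% and 40.1% in DCBQ samples 1 to 3, against 53.3%, 42.5% and 38.1% in Control samples 1 to 3. Sample 1 of each group thus carried the extremes of both marks there. The most inward run, 15 CpGs from -3024 to -2566 bp, averaged 8.51% ± 2.61 5hmC in DCBQ samples and 4.62% ± 2.72 in Control samples (SD, n = 3 each), with overlap, and its 5mC averaged 48.3% ± 4.2 in DCBQ samples and 49.9% ± 5.1 in Control samples.

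Divided at the gene end, the 41 control region CpGs inside the genes had a 5hmC difference of 6.53 points (SE 0.95) without overlap. The 7 CpGs outside, between the gene end and MIMT1, had 15.5%, 6.81% and 3.44% 5hmC in DCBQ samples 1 to 3, against 0%, 10.7% and 4.13% in Control samples 1 to 3, and overlapped.

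**Figure D4:**
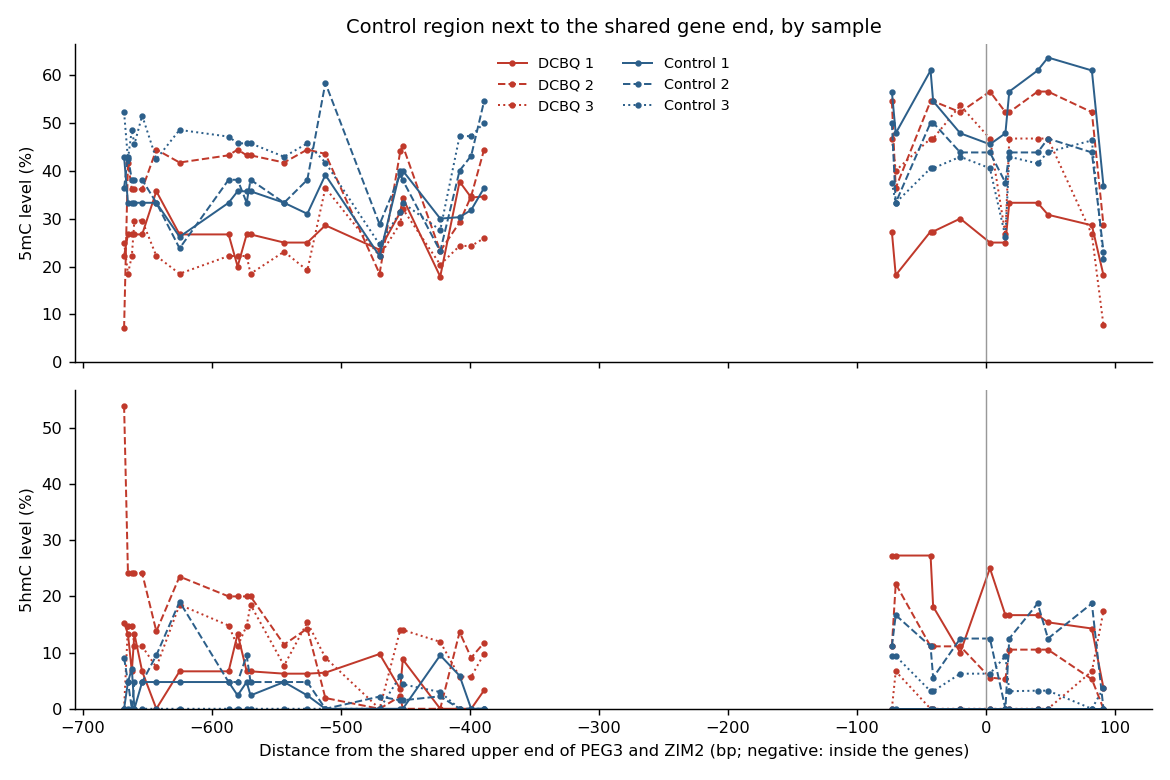
Levels of 5mC (top) and 5hmC (bottom) in percent by distance in bp from the shared upper end of PEG3 and ZIM2, for the 2 runs nearest that end, with 1 line per sample. In the run from -668 to -389 bp the DCBQ lines for 5hmC mostly lie above the Control lines, and at the gene end DCBQ sample 1 lies highest for 5hmC and lowest for 5mC at most CpGs.

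The PEG3 body had the same mean 5mC in both groups. It was 59.8%, 65.6% and 66.7% in DCBQ samples 1 to 3, against 61.9%, 67.6% and 62.7% in Control samples 1 to 3. The means were 64.0% ± 3.7 in DCBQ samples and 64.0% ± 3.1 in Control samples (SD, n = 3 each), a difference of -0.007 points (SE 2.78; two-sided exact permutation test, p = 1). Of its 24 CpGs, 13 were lower and 11 higher in DCBQ samples. 5hmC in the PEG3 body was 8.22%, 5.91% and 5.14% in DCBQ samples 1 to 3, against 3.22%, 2.29% and 5.27% in Control samples 1 to 3. DCBQ sample 3 and Control sample 3 overlapped, and the difference of 2.83 points (SE 1.28) gave p = 0.2 in the two-sided exact permutation test, adjusted p = 0.48. 5hmC was higher in DCBQ samples at 18 of 24 CpGs and lower at 5.

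The runs of the PEG3 body differed in level. The run from -17089 to -17034 bp averaged 77.2% ± 3.2 5mC in DCBQ samples and 79.7% ± 3.3 in Control samples, and the run from -16403 to -16163 bp averaged 57.1% ± 6.0 in DCBQ samples and 58.2% ± 2.1 in Control samples. The run from -23294 to -23186 bp held the widest range of single CpGs, from 13.4% to 95.5%, and averaged 60.8% ± 3.9 5mC in DCBQ samples and 56.7% ± 6.6 in Control samples (SD, n = 3 each). Its sum of marks was 64.2%, 69.9% and 67.9% in DCBQ samples 1 to 3, against 54.3%, 63.1% and 59.6% in Control samples 1 to 3. These sums did not overlap (two-sided exact permutation test, p = 0.1, the smallest possible), unlike those of the other runs among the 10 in the window. The share of runs without overlap in their sums was not computed for the whole table, so this count has no background beside it.

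The ZIM2 lower part had the lowest 5mC of the blocks, and its 5hmC was close to that of the PEG3 body. Its 5mC was 19.7%, 22.6% and 16.7% in DCBQ samples 1 to 3, against 21.8%, 17.4% and 22.1% in Control samples 1 to 3, and its 5hmC was 8.47%, 3.59% and 6.19% in DCBQ samples 1 to 3, against 1.54%, 4.77% and 4.44% in Control samples 1 to 3. Both marks overlapped between groups, with differences of -0.75 points for 5mC (SE 2.29) and 2.5 points for 5hmC (SE 1.74). With tiles counted equally the 5mC difference was -3.11 points (two-sided exact permutation test, p = 0.1, the smallest possible). That value gives the weight of a whole tile to the single CpG at -64711 bp, which differed by -20 points with overlap between groups. With CpGs counted equally the 5mC difference was -2.22 points without DCBQ sample 2 and -2.28 points without Control sample 2. It turned positive, at 0.739 points without DCBQ sample 3 and 0.093 points without Control sample 3, and was -0.068 points without Control sample 1. The 5hmC difference was 1.31 points without DCBQ sample 1, 1.48 points without Control sample 1 and 1.33 points as a median over CpGs. The 4 runs of this block differed in 5mC level, and the lowest, 3 CpGs from -58756 to -58610 bp, averaged 8.80% ± 2.77 in DCBQ samples and 8.41% ± 3.44 in Control samples (SD, n = 3 each). The nearest measured CpG below the window, 5254 bp away, had 5mC of 85.7%, 72.7% and 83.3% in DCBQ samples 1 to 3, against 78.6%, 81.8% and 75% in Control samples 1 to 3. The nearest above, 2136 bp away, had 37.8%, 14.5% and 9.8% in DCBQ samples 1 to 3, against 24.2%, 18% and 22.2% in Control samples 1 to 3.

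Single CpGs, tiles and gene ends were tested with limma over the whole tables, with Benjamini-Hochberg adjustment at 0.05 and, for single CpGs, a difference of at least 10 points. No CpG of the window was called for either mark, and 0 of its 6 tiles of 1000 bp with at least 5 CpGs. The background was 0% of CpGs, tiles and gene ends called for 5mC, 0% of tiles and gene ends called for 5hmC, and 3.17e-05% of CpGs called for 5hmC, which is 1 of 3153543. At an unadjusted p under 0.05 limma had 5 of 85 tested CpGs and 0 of 6 tiles of the window for 5mC, and 0 of 83 CpGs and 1 of 6 tiles for 5hmC. The shares over the whole tables were 4.69% of CpGs and 6.2% of tiles for 5mC, and 1.88% of CpGs and 4.83% of tiles for 5hmC, so the 5mC count of the window lies near its background. The 5hmC count of CpGs depended on the limma setting. It was 12 of 83 without the trend, beside 3.9% over the whole table, and 5 of 83 on an arcsine scale, beside 3.38%. With the replicate number as a block it was 0 of 83, beside 1.23%.

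The 1 tile of the window with an unadjusted limma p under 0.05 for 5hmC held 33 CpGs from -725 to 274 bp. It covers the upper runs of the control region. Its 5hmC was 10.8%, 13.5% and 7.91% in DCBQ samples 1 to 3, against 1.91%, 6.81% and 2.22% in Control samples 1 to 3, a difference of 7.12 points without overlap. In limma this tile had an adjusted p = 0.97 (unadjusted p = 0.017). Across all tiles of the table the middle 90% of 5hmC differences ran from -2.89 to 3.31 points around a median of 0.07. It was the only 1 of the 6 tiles without overlap between groups for 5hmC, in a table where 5.55% of tiles did not overlap in the higher direction and 4.39% in the lower. All 6 tiles had higher mean 5hmC in DCBQ samples, by 0.63 to 7.12 points. For 5mC the same tile differed by -7.36 points (limma adjusted p = 0.83), which was -4.50 without DCBQ sample 1 and -11.8 without DCBQ sample 2. For 5mC 5 of 6 tiles were lower in DCBQ samples, and each of the 6 overlapped between groups, beside 8.11% of all tiles without overlap in the lower direction and 3.38% in the higher.

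The single CpG with the largest 5mC difference of the control region stood at -668 bp (19:56840058), with 22.2%, 7.1% and 25% in DCBQ samples 1 to 3, against 42.9%, 36.4% and 52.2% in Control samples 1 to 3. All DCBQ values lay below all Control values, with a mean difference of -25.7 points (limma adjusted p = 0.93). Its 5hmC was 15.3%, 54.0% and 0% in DCBQ samples 1 to 3, against 0%, 9.09% and 0% in Control samples 1 to 3, and overlapped. At -660 bp (19:56840066) 5hmC was 13.3%, 24.1% and 11.1% in DCBQ samples 1 to 3, against 0%, 4.76% and 0% in Control samples 1 to 3, a difference of 14.6 points without overlap (limma adjusted p = 0.79). In the PEG3 body CpGs of the same run differed in opposite directions for 5mC, by 13.8 points at -16219 bp and by -11.4 points at -16273 bp. Both were without overlap and both had limma adjusted p = 0.93. The measured CpG between them, at -16252 bp, differed by 2.3 points with overlap. The remaining CpGs picked by the rule for single CpGs, all without overlap and without a limma call, were a control region CpG at -3024 bp with -12.1 points of 5mC and one at -665 bp with 14.3 points of 5hmC. In the PEG3 body they were a CpG at -17064 bp with -5.43 points of 5mC and one at -16329 bp with 9.41 points of 5hmC, and in the ZIM2 lower part a CpG at -39539 bp with 14.4 points of 5mC. Without DCBQ sample 3 the 5mC difference was 8.22 points at -16219 bp and -3.03 points at -17064 bp.

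The gene ends of other genes gave the wider setting. A gene end here is the window from 1500 bp outside to 500 bp inside whichever end of a gene held more measured CpGs, and it can be the 3′ end. PEG3 and ZIM2 share 1 such end with 19 CpGs, at 35.9% ± 8.2 5mC in DCBQ samples and 41.5% ± 4.0 in Control samples (SD, n = 3 each). The median over 15825 gene ends was 5.92%, and 14.3% of ends lay at 20% to 60%. 5hmC at the shared end was 8.54% ± 4.03 in DCBQ samples and 4.00% ± 3.26 in Control samples, with a median of 1.27% over all ends. Both marks overlapped between groups at this end, with differences of 4.54 points for 5hmC (SE 2.99) and -5.65 points for 5mC (SE 5.25).

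The 3 lists of genes were compared with the locus, and limma called 0 gene ends of any list for either mark. Among 19 measured genes for imprint maintenance, 14 were lower and 5 higher in 5mC in DCBQ samples, with a median of -0.19 points. Over all ends 60.2% were lower and the median was -0.11. In limma 3 of the 19 had an unadjusted p under 0.05, beside 6.58% of all ends for 5mC. Of 18 measured for 5hmC, 12 were higher and 6 lower, with a median of 0.14 points, beside 54.4% higher and a median of 0.04 over all ends. In limma 4 of the 18 had an unadjusted p under 0.05, beside 4.95% of all ends for 5hmC. The end of TRIM28, the corepressor that zinc finger proteins bring to imprints, had 4.29% ± 1.0 5hmC in DCBQ samples and 2.31% ± 0.56 in Control samples (SD, n = 3 each), without overlap. Its 5mC was 23.9% ± 1.0 in DCBQ samples and 26.5% ± 0.2 in Control samples, also without overlap (limma adjusted p = 0.66). The end of NLRP2 had 62.9% ± 1.4 5mC in DCBQ samples and 71.8% ± 1.4 in Control samples, without overlap (limma adjusted p = 0.49). NLRP5, an oocyte factor whose loss disturbs imprints, had the most negative 5mC and the most positive 5hmC difference of the list. Its 8 CpGs averaged 32.9% ± 4.6 5mC in DCBQ samples and 42.1% ± 5.5 in Control samples, with overlap, and 21.0% ± 3.2 5hmC in DCBQ samples and 11.8% ± 3.1 in Control samples, without overlap (limma adjusted p = 0.74 and 0.97). UHRF1, which guides the maintenance methyltransferase to newly copied DNA, had the most negative 5hmC difference. Its 5hmC was 3.79% ± 1.18 in DCBQ samples and 8.12% ± 3.14 in Control samples, with overlap. The end used for UHRF1 was the one at its upper coordinate, where 5mC averaged 76.1% ± 1.6 in DCBQ samples and 72.0% ± 3.2 in Control samples. The end of NLRP7 had the most positive 5mC difference, 4.85 points. DNMT3L, a cofactor of imprint establishment, was nearest to the control region in 5hmC level, with 8.70% ± 3.04 in DCBQ samples and 6.65% ± 5.23 in Control samples.

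The gene ends of other imprinted genes did not share 1 direction. Of 32 measured ends 16 were lower and 16 higher for 5mC, and the counts were the same for 5hmC. Over all ends 60.2% were lower for 5mC and 54.4% higher for 5hmC. Unadjusted limma p-values under 0.05 numbered 3 of 32 for 5mC and 2 of 32 for 5hmC, beside 6.58% and 4.95% over all ends. Only 5 of the 32 ends had a mean 5mC from 20% to 60%, and the median was 12.3%. Most of these ends were thus not at a level like that of the control region. PEG10 and SGCE had identical values from 22 CpGs, and the windows of ZNF597 and NAA60 overlap, so the 32 ends are not all separate. ZNF597, an imprinted zinc finger gene, was nearest to the control region in 5mC level and also had the most positive 5mC difference, with 50.2% ± 4.3 in DCBQ samples and 42.8% ± 10.9 in Control samples (SD, n = 3 each) and overlap. Its 5hmC was 5.91% ± 7.38 in DCBQ samples and 7.36% ± 6.13 in Control samples, also with overlap. The differences of ZNF597 were 7.47 points for 5mC (SE 6.78) and -1.46 points for 5hmC (SE 5.54). Both had the sign opposite to the control region, but the 5hmC difference was smaller than its error. MKRN3, an imprinted gene that restrains puberty, had the most positive 5hmC difference, and its 5mC was 45.2% ± 2.4 5mC in DCBQ samples and 48.7% ± 2.0 in Control samples. Its 5hmC was 7.50% ± 1.03 in DCBQ samples and 3.26% ± 2.18 in Control samples (SD, n = 3 each), without overlap and with limma adjusted p = 0.97. RTL1, an imprinted gene needed in the placenta in mice, differed in the other direction for 5hmC, with 3.99% ± 1.04 in DCBQ samples and 8.93% ± 1.99 in Control samples, also without overlap. NDN had the most negative 5mC difference, -3.68 points, and was nearest to the control region in 5hmC, with 8.09% ± 7.20 in DCBQ samples and 5.79% ± 1.01 in Control samples.

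Neighbouring genes of the cluster were not called for either mark. Of 15 measured ends 7 were lower and 8 higher for 5mC, and 8 were lower and 7 higher for 5hmC. Over all ends 60.2% were lower for 5mC and 54.4% higher for 5hmC. An unadjusted limma p under 0.05 was found at 3 of 15 ends for 5mC and 1 of 15 for 5hmC, beside 6.58% and 4.95% over all ends. The median level of these ends was 9.88% for 5mC and 1.23% for 5hmC, so most had little of either mark. USP29, which is imprinted with PEG3, averaged 55.7% ± 0.6 5mC in DCBQ samples and 55.5% ± 0.3 in Control samples (SD, n = 3 each), and 3.85% ± 1.27 5hmC in DCBQ samples and 5.13% ± 0.54 in Control samples. ZNF547, a zinc finger gene, averaged 55.5% ± 0.7 5mC in DCBQ samples and 55.1% ± 0.7 in Control samples. SMIM17 had the most negative 5mC difference of the list, -2.72 points, and ZNF460 the most positive 5hmC difference, 1.77 points. The 5mC of the ZNF460 end was 8.71%, 9.22% and 9.15% in DCBQ samples 1 to 3, against 11.0%, 10.6% and 10.5% in Control samples 1 to 3, without overlap, and limma gave an adjusted p = 0.49 (unadjusted p = 0.0016). DUXA had the most positive 5mC difference, 1.61 points, and a 5hmC level of 6.55% ± 4.96 in DCBQ samples and 7.05% ± 1.94 in Control samples.

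**Figure D5:**
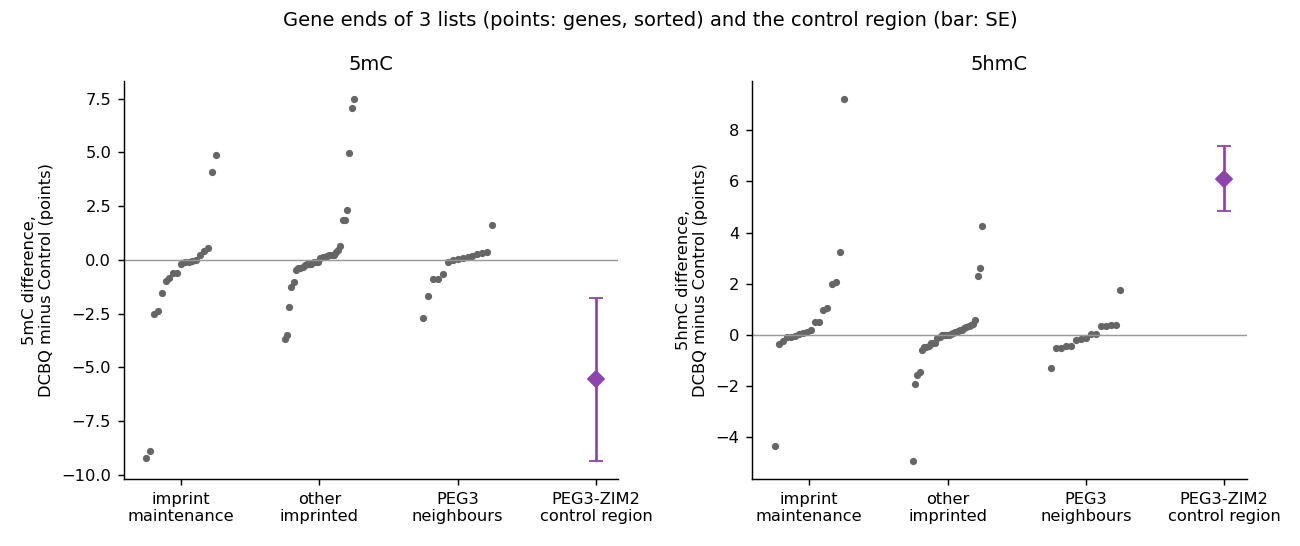
Differences, DCBQ minus Control in percentage points, of 5mC (left) and 5hmC (right) for the gene ends of 3 lists, 1 point per gene sorted by value, beside the control region of PEG3 and ZIM2 with its SE. The control region lies at 6.11 points for 5hmC, above each neighbouring gene, and at -5.56 points for 5mC. It is a longer block than a gene end, and the gene end shared by PEG3 and ZIM2 differed by 4.54 points for 5hmC, with overlap between groups.

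The gene ends with values most like the control region were found by the root mean square difference over the 12 values of both marks, among 15700 ends. The nearest were CMKLR1 and SLC13A5, each at 3.20 points, ARHGAP23 at 3.22, USP17L28 at 3.47 and LOC102723475 at 3.60. USP17L28 belongs to a repeated gene family, so its reads may be shared with near-identical copies. CMKLR1, a receptor for chemerin, averaged 36.9% ± 0.7 5mC in DCBQ samples and 43.9% ± 1.4 in Control samples, and 7.74% ± 1.70 5hmC in DCBQ samples and 5.36% ± 1.1 in Control samples (SD, n = 3 each). Both of its marks were without overlap, whereas in the control region only 5hmC was.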

How the data were processed

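For each CpG the authors deposited 5mC and 5hmC as a fraction between 0 and 1, printed here as percent. The file names give a minimum of 5 reads and merged strands. Per the labels' protocols, QIAamp DNA went into Ovation RRBS Methyl-Seq libraries with or without TrueMethyl oxidation. Per the submitters' processing notes, reads were handled with cutadapt, Trim Galore and BSMAP 2.90 on hg38. The sources used here do not say how libraries were combined into each column, and columns name a condition and number only. Values of 5hmC below 0 by rounding were set to 0.

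Block means were compared by two-sided exact permutation over 20 relabellings. CpGs whose value varies, 1000 bp tiles with at least 5 CpGs and gene ends were fitted with limma 3.58.1 in R 4.3.3 (untransformed percent, eBayes with trend) and the code was tested on simulated data. The named CpGs were the largest differences without overlap. The named list genes were those with the largest difference in each direction or the level nearest the control region. The 5 ends nearest in value to the control region were also named. TRIM28 and NLRP2 were chosen after their values were seen. Runs of CpGs used positions only and were set after the data were seen. The window, lists and tests were chosen with earlier results of these data known. Same-numbered samples did not deviate together, with correlations of -0.035 to 0.009 over tiles, so no pairing was assumed.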

Additional observations from a re-analysis of the deposited data

How the results depend on the processing

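Of 447 alternative values, 424 kept their direction and side of the threshold and 23 changed sign. The 5hmC differences of all blocks kept their sign under every alternative run, and the control region's ranged from 1.47 points (tiles counted equally) to 7.28 (median over CpGs), while its 5mC difference ranged from -9.24 to -3.07. The 5mC difference of the PEG3 body was near 0 and changed sign, at 2.37 as a median over CpGs, 0.148 with tiles counted equally, 0.409 relative to all CpGs, and -1.33 to 2.11 without 1 sample; that of the ZIM2 lower part was 0.367 as a median, -3.11 with tiles counted equally and -2.28 to 0.739 without 1 sample. Without 1 sample, 5mC differences of the runs crossed 0 for those starting at -58756 bp (-1.21 to 2.30), -48419 bp (-5.68 to 2.25, also its tile), -16403 bp (-3.06 to 2.37, also its tile), -3024 bp (-3.74 to 1.20, and its tile -3.31 to 1.27) and -73 bp (-11.1 to 0.72), and 5hmC differences for those at -39667 bp (-4.06 to 1.18) and -17089 bp (-1.07 to 1.60, also its tile). With the replicate number as a block the control region differences were the same, 6.11 and -5.56 points, as for the other blocks, and the smallest sign-flip p is 0.25; limma with the replicate block called 0 in the window and lists. Those counts were 0 under every alternative run, including leaving out each sample, other tile sizes and an arcsine scale. Depth is unknown, so counting error at single CpGs is unmeasured, and values listed as 0 give no floor. Leaving out samples from the runs, tiles and single CpGs was chosen after seeing the data.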
